A study of Glycyrrhiza uralensis with 6 samples.

Results

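In licorice suspension cells, 20 of 116907 unigenes formed 10 pairs in which the unigenes belong to the same component of the transcriptome assembly but differed in opposite directions between cells labelled as treated with methyl jasmonate (MeJA) and cells labelled as control. A unigene is an assembled transcript sequence that stands for a gene. A component is here the set of unigenes whose identifiers share the part before "_g", and the 116907 unigenes fell into 105472 components. The members were chosen by their expression values in these same 6 libraries. For each unigene, the gap between the groups was the lowest CPM (counts of the unigene per 1000000 counts of the library) in the higher group divided by the highest CPM in the lower group. A unigene was taken when its gap was above 2 and below 16, it had at least 1 count in every library and at least 10 in each library of the higher group, and its mean CPM was under 1000 in both groups. A component was taken when it held unigenes of both directions. The difference between the groups is therefore what selected these unigenes, and it is given below as a description without a test.

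The libraries came from a single suspension line of Glycyrrhiza uralensis, a legume whose roots and stolons are used as licorice, grown from callus in Murashige and Skoog medium with the auxin NAA and the cytokinin 6-BA, to which the study's methods add the auxin 2,4-D. The 3 libraries labelled MeJA came from cells recorded as given 0.5 µl/mL MeJA for 9 h. The study's treatment list calls what was added a MeJA solution, and its methods state the dose as a final molar concentration. The 0.5 µl/mL therefore need not be pure MeJA. The 3 libraries labelled control came from cells recorded as given 0.4 µl/mL absolute ethanol for 9 h, although the study's methods speak of an equal volume. No ethanol was added separately to the MeJA cells, and the solvent of the MeJA solution is not given in the sources used here. Nothing in the labels says that replicates were separate cultures, so the spread between them may be technical. The sample name inside each deposited file carries the letter of the opposite group in 6 of 6 libraries. Groups follow the labels, and if the names inside the files hold, the same 20 unigenes are selected with every direction exchanged.

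MeJA is the volatile methyl ester of jasmonic acid, a lipid-derived plant hormone of wounding, defence and specialised metabolism. In the pathway as known from Arabidopsis, the amino acid conjugate jasmonoyl-isoleucine binds the receptor COI1 together with JAZ repressors, the repressors are degraded, and MYC transcription factors are released to act on their target genes. Cultured legume cells are commonly given MeJA to raise flavonoids and triterpenoid saponins. In a de novo assembly, sequences that share stretches are collected in a common component. These can be duplicated genes of a family, alleles, splice forms of a single gene or fragments of it. No unigene is paired with a gene name in the files used here, so the role of each member is unknown and the members are described by their levels, lengths and shared fragments.

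Of the 21629 unigenes with counts and levels high enough to be called in at least 1 direction, 7780 lay in components of 2 or more unigenes. In all, 2928 unigenes were called as higher in the libraries labelled MeJA, 14.4% of those that could be, and 504 as lower, 2.73% of those that could be. Among 2342 components with at least 2 unigenes that could be called, 10 (0.427%) held both directions. A total of 140 components held 2 or more called unigenes, of which 119 held only unigenes higher in the libraries labelled MeJA and 11 only unigenes that were lower. Each of the other 10 held exactly 1 of each kind, called here the MeJA-high and the control-high unigene. Which components qualify depends on the scaling. The median unigene that could be called was higher by 0.61 on the log2 scale in the libraries labelled MeJA when scaled to library totals, whereas the median edgeR log2 fold change over all unigenes tested, which uses TMM factors, was -0.01. With TMM factors in the rule, 10 components again qualified, but c44532, c51772 and c61033 were the only ones shared with the 10 described here. Leaving out a library makes the limits easier to meet, and 16, 33 and 25 components qualified without MeJA replicates 1, 2 and 3, against 42, 16 and 18 without control replicates 1, 2 and 3. All 10 stayed in each of these sets except c61033, lost without control replicate 1, and c44532, lost without control replicate 3. Both were lost because the gap of a member then passed the upper limit of 16, not because the groups came closer.

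**Figure D1:**
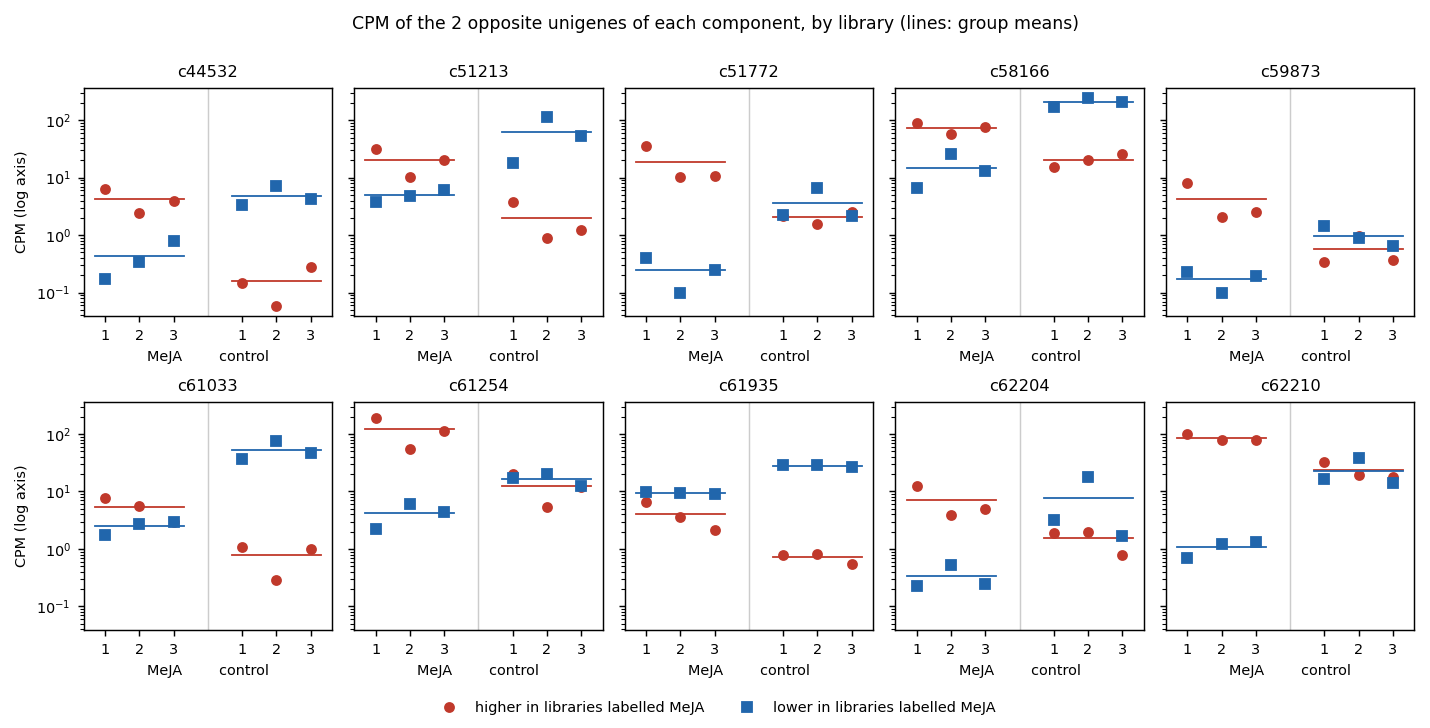
CPM (log axis) of the MeJA-high unigene (circles) and the control-high unigene (squares) of each of the 10 components in the 3 libraries labelled MeJA (left in each panel) and the 3 labelled control (right), with lines at the group means. In every panel the groups do not overlap for either unigene, as the rule required.

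The widest separation, by the sum of the log2 gaps, was in c44532, which holds 2 unigenes and no others. c44532_g2 had 6.27, 2.42 and 3.99 CPM in the libraries labelled MeJA, against 0.148, 0.0587 and 0.277 CPM in the libraries labelled control. These are 110, 50 and 81 fragments against 3, 1 and 6, so the control level rests on very few fragments. Its partner c44532_g1 had 0.171, 0.339 and 0.788 CPM in the libraries labelled MeJA, against 3.30, 7.04 and 4.25 CPM in those labelled control. The means of c44532_g2 were 4.23 ± 1.93 CPM and 0.161 ± 0.110 CPM (SD, n = 3 each), 26.2-fold higher in the libraries labelled MeJA. For c44532_g1 they were 0.433 ± 0.319 CPM and 4.86 ± 1.94 CPM, 11.2-fold lower, or 19.1-fold lower without MeJA replicate 3. Without control replicate 3, c44532_g2 was 40.9-fold higher. The pair thus exchanged places: c44532_g2 carried most of the fragments in every library labelled MeJA and c44532_g1 in every library labelled control. The sum of the component overlapped between the groups, at 4.66 ± 1.84 CPM and 5.02 ± 1.88 CPM, a log2 change of -0.11 that became -0.72 with TMM factors.

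The pair with the most fragments was in c58166, a component of 6 unigenes. c58166_g1 had 88.9, 57.8 and 76.2 CPM in the libraries labelled MeJA, against 15.1, 20.2 and 25.7 CPM in the libraries labelled control, a 3.66-fold difference of the means. c58166_g5 had 6.49, 25.3 and 13.0 CPM in the libraries labelled MeJA and 171, 242 and 205 CPM in those labelled control, 13.8-fold lower, or 21.2-fold lower without MeJA replicate 2. With between 114 and 4441 fragments in each library, neither member is limited by depth. The control-high member lost 191 CPM between the group means and the MeJA-high member gained 54.0 CPM. A further unigene of c58166 was separated too widely for the upper limit of 16 on the gap, with 2, 3 and 3 fragments in the libraries labelled MeJA and 491, 613 and 587 in those labelled control. Another, below the count minimum, had 0, 1 and 0 fragments against 62, 133 and 179. Both lie on the side of c58166_g5, so 3 of the 6 unigenes of c58166 were lower in every library labelled MeJA and 1 was higher past the limit. These further unigenes were picked out after their values were seen.

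In c51772 the exchange ran between unigenes of very different length. The MeJA-high unigene, with a median effective length of 3212 bases, had 34.9, 10.4 and 10.8 CPM in the libraries labelled MeJA, against 2.12, 1.58 and 2.54 CPM in those labelled control. The control-high unigene, of 183 bases, had 0.399, 0.0969 and 0.246 CPM in the libraries labelled MeJA, from only 7, 2 and 5 fragments. In the libraries labelled control it had 2.27, 6.57 and 2.17 CPM. MeJA replicate 1 stood well above replicates 2 and 3 for the long unigene, and control replicate 2 above replicates 1 and 3 for the short one. Because a longer sequence catches more fragments, the short member was the more abundant of the pair per length in the libraries labelled control, as shown by its FPKM (fragments scaled by effective length and by library size) of 12.6, 35.6 and 11.9, against 0.660, 0.490 and 0.790 for the long member.

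Component c51213 was uneven between replicates. Its MeJA-high unigene had 31.1, 10.4 and 20.6 CPM in the libraries labelled MeJA and 3.85, 0.880 and 1.25 CPM in those labelled control. Its control-high unigene had 3.76, 4.85 and 6.21 CPM in the libraries labelled MeJA, against 18.1, 115 and 52.8 CPM in the libraries labelled control. Control replicate 2, which was highest for the control-high member, was lowest for the MeJA-high one, while control replicate 1 showed the reverse order. The control-high member averaged 61.9 CPM over the libraries labelled control, and 35.5 CPM without control replicate 2. The MeJA-high member was 10.4-fold higher in the libraries labelled MeJA, and 19.5-fold higher without control replicate 1.

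Component c61033 had a large loss beside a small gain. The control-high unigene had 1.77, 2.71 and 2.91 CPM in the libraries labelled MeJA, against 36.6, 76.0 and 46.9 CPM in those labelled control, and was 21.6-fold lower. The MeJA-high unigene had 7.80, 5.52 and 2.96 CPM in the libraries labelled MeJA and 1.08, 0.293 and 1.02 CPM in those labelled control, 6.80-fold higher. Most fragments of c61033 in the libraries labelled MeJA came from another of its 4 unigenes, which was not called, at 79.5 ± 19.8 CPM and 43.3 ± 16.7 CPM. The sum of the component was 89.6 ± 22.0 CPM and 97.6 ± 27.0 CPM, and the groups overlapped with library totals and with TMM factors.

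In c62210 the pair held nearly all fragments of the component. The MeJA-high unigene had 99.2, 78.9 and 79.5 CPM in the libraries labelled MeJA, against 32.9, 19.5 and 18.2 CPM in the libraries labelled control. The control-high unigene had 0.683, 1.21 and 1.33 CPM in the libraries labelled MeJA and 16.2, 38.1 and 14.0 CPM in those labelled control. Here the 21.2-fold lower level of the control-high member removed fewer fragments than the 3.65-fold higher level of its partner added, 21.7 CPM against 62.3 CPM.

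Component c61254 was the largest, with 10 unigenes, and had the highest sum. Its MeJA-high unigene reached 193, 55.4 and 115 CPM in the libraries labelled MeJA, against 20.5, 5.46 and 11.8 CPM in those labelled control, the highest level of any MeJA-high member. The control-high unigene had 2.22, 6.10 and 4.38 CPM in the libraries labelled MeJA and 17.1, 20.0 and 12.6 CPM in those labelled control. This was the only one of the 10 components in which the mean FPKM of the MeJA-high member exceeded that of its partner also in the libraries labelled control, although in control replicate 2 it was lower, at 4.07 against 5.91. Single replicates were mixed elsewhere too. In c62204 the MeJA-high member had 4.71, 12.0 and 1.60 FPKM in the libraries labelled control, against 2.68, 15.3 and 1.40 for its partner. In control replicate 1 of c62210 it had 16.6 against 13.2. The pair of c61254 held between 15.2% and 34.2% of the fragments of c61254 in the libraries labelled MeJA. In the libraries labelled control it held between 4.40% and 5.90%. The other 8 unigenes carried the rest.

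The tightest replicates were those of the control-high unigene of c61935, at 9.91, 9.30 and 8.91 CPM in the libraries labelled MeJA, against 28.8, 29.0 and 26.9 CPM in the libraries labelled control. Scaled to library totals, its difference of 3.02-fold was the smallest of the 20, while with TMM factors in edgeR those of 4 MeJA-high members were smaller. Its MeJA-high partner had 6.55, 3.54 and 2.17 CPM in the libraries labelled MeJA and 0.789, 0.822 and 0.554 CPM in those labelled control. The control-high member kept more fragments than its partner in all 6 libraries.

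Components c59873 and c62204 lay near the lower limits of the rule. The MeJA-high unigene of c59873 had 8.13, 2.07 and 2.56 CPM in the libraries labelled MeJA, against 0.345, 0.982 and 0.369 CPM in those labelled control. The control-high unigene of c59873 had 4, 2 and 4 fragments in the libraries labelled MeJA and 29, 15 and 14 in those labelled control, the fewest of any control-high member. Its fold change of 5.67 thus rests on small counts. In c62204 the MeJA-high unigene had 12.7, 3.92 and 4.93 CPM in the libraries labelled MeJA, against 1.92, 1.94 and 0.784 CPM in the libraries labelled control. The control-high unigene of c62204 had 0.228, 0.533 and 0.246 CPM in the libraries labelled MeJA, from only 4, 11 and 5 fragments. In the libraries labelled control it had 3.20, 18.1 and 1.66 CPM. Control replicate 2 decides that mean, 7.67 CPM with it and 2.43 CPM without it.

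Across the 10 components, the median CPM of the MeJA-high members was 12.9 in the libraries labelled MeJA and 1.77 in the libraries labelled control. For the control-high members the medians were 1.77 CPM in the libraries labelled MeJA and 19.7 CPM in those labelled control. In 5 components the MeJA-high member had over 50% of the pair's fragments in every library labelled MeJA and the control-high member in every library labelled control. These were c44532, c51213, c58166, c61033 and c62204. For c61033 this was barely so, as its members had 60 and 59 fragments in MeJA replicate 3. In the libraries labelled MeJA alone the MeJA-high member led throughout in 9 components, and in the libraries labelled control the control-high member led throughout in 6. The members were not unusual in level, since the mean CPM of 11 of the 20 lay above the median of all unigenes that could be called and their median was 10.4 CPM against 9.45 CPM.

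The distance between the partners can depend only little on how the libraries are scaled, because a library's factor applies to both partners and nearly cancels. Its similar values under the scalings therefore do not show that the choice of pairs is firm. The log2 change of the MeJA-high unigene minus that of the control-high unigene ran between 4.09 in c61935 and 8.20 in c44532, with a median of 6.50. The median was 6.58 with TMM, 6.57 with RLE and 6.54 with upper-quartile factors, and 5.85 in FPKM. With library totals the distance was 7.20 in c61033, 7.06 in c51772, 7.03 in c51213, 6.73 in c62204 and 6.27 in c62210. Over all 5306 pairs of unigenes that share a component and could be called, the median absolute difference was 0.97, and 36.6% had changes of opposite sign when scaled to library totals. As many as 154 pairs (2.90%) differed by at least the 4.09 of c61935, so most pairs that far apart were not among the 10. The rule asked for a gap on both sides of 0, and 193 components had a unigene without overlap in each direction at a gap above 1. Closest to the limit of 2 inside the rule were c62204, whose smaller gap was 2.03, and c61254 at 2.07. Just outside were c60696 at 1.97 and c52682 at 1.92. At the upper limit of 16, the nearest inside were the control-high unigenes of c61033 at 12.6 and c62210 at 10.5, and the unigene outside it that passed the count minimum was that of c58166 described above, at 164. The unigene of c58166 below the count minimum had a gap of 63.1.

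**Figure D2:**
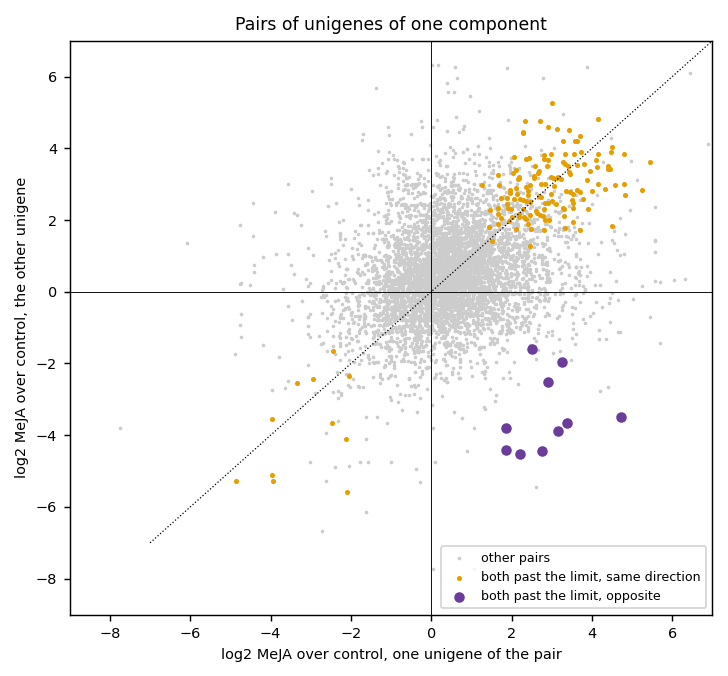
Each point is a pair of unigenes of a shared component, placed by the log2 ratio of mean CPM in the libraries labelled MeJA over those labelled control of each partner; large points are the 10 opposite pairs, drawn with the MeJA-high partner on the x axis. Most of the 5306 pairs lie near the diagonal of equal change, with a median absolute difference of 0.97, whereas the opposite pairs differ by 4.09 to 8.20.

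The component sums overlapped between the groups in some components and not in others. With library totals, the summed CPM of all unigenes of a component was higher in the libraries labelled MeJA in 3 components and lower in 7, and the same split was found with TMM, RLE and upper-quartile factors. The groups did not overlap in 5 components. The sum was higher without overlap in c51772, at 22.0 ± 14.9 CPM and 6.41 ± 1.88 CPM, and in c62210, at 87.9 ± 10.5 CPM and 47.0 ± 13.0 CPM (SD, n = 3 each, here and below). It was lower without overlap in c58166 (102 ± 8.66 CPM and 271 ± 42.7 CPM), c51213 (32.9 ± 6.76 CPM and 79.6 ± 45.0 CPM) and c61935 (14.6 ± 2.88 CPM and 29.8 ± 1.54 CPM). Over the 2342 components with at least 2 unigenes that could be called, 39.2% had a higher sum without overlap and 10.6% a lower one. With TMM factors the groups overlapped in c51772 and c62210 but not in c61254, which left 4 components without overlap, all lower in the libraries labelled MeJA.

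The sums of c44532, c61033, c61254 and c62204 differed between the groups by no more than 0.22 on the log2 scale, and that of c59873 by 0.78, with overlap in all 5, when scaled to library totals. With TMM factors the changes were -0.72 in c44532, -0.73 in c61033, -0.78 in c61254, -0.87 in c62204 and 0.20 in c59873, so the first 4 of these were close to level under library totals only. Over the 10 components the median log2 change of the sum was -0.17, against 0.46 over the 2342 components, and the median absolute change was 0.84 against 0.71. The sums were thus no closer to level than those of other components. The median is not firm, as it was -0.75 with TMM factors and 0.12 without control replicate 2.

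**Figure D3:**
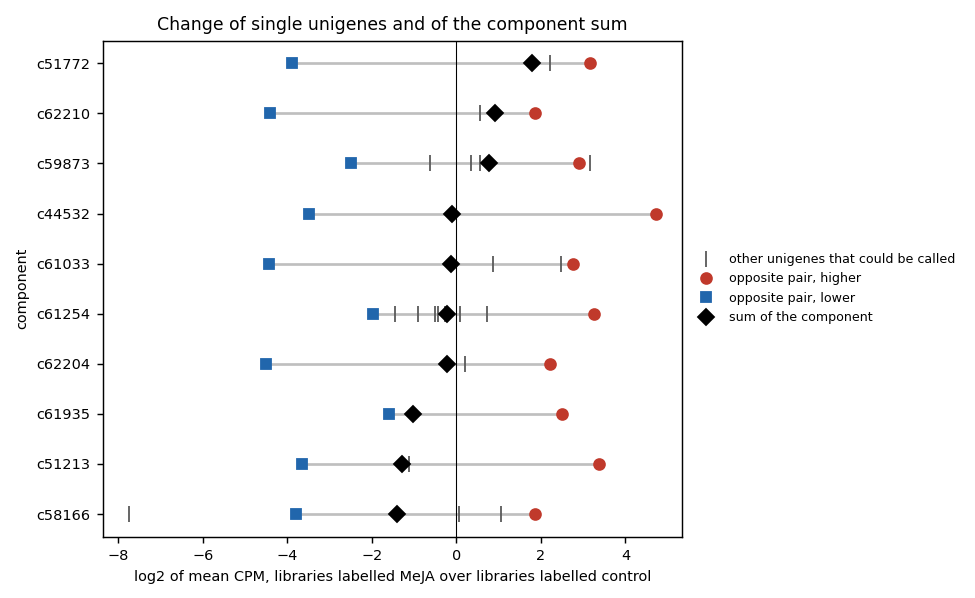
Log2 ratio of mean CPM, libraries labelled MeJA over those labelled control, of the MeJA-high unigene (circles), the control-high unigene (squares), the other unigenes that could be called (ticks) and the sum of all unigenes (diamonds) in each component. The sums lie between -1.41 in c58166 and 1.78 in c51772, inside the range spanned by the opposite unigenes.

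Gain and loss matched in few components. The gain is the difference of the group means of the MeJA-high unigene, and the loss that of the control-high unigene, both in CPM. The gain of 4.07 CPM was 0.917 times the loss of 4.43 CPM in c44532, and in c62204 the gain of 5.64 CPM was 0.769 times the loss of 7.33 CPM. With library totals, these were the 2 components in which the ratio lay between 0.5 and 2. In c44532 it stayed within these limits with each library left out, whereas in c62204 it was 2.78 without control replicate 2 and 0.395 without MeJA replicate 1, and in c51213 it was 0.594 without control replicate 2. The gain exceeded the loss in c61254 (109 CPM and 12.3 CPM), c51772 (16.6 CPM and 3.42 CPM), c59873 (3.69 CPM and 0.811 CPM) and c62210. The loss exceeded the gain in c61033 (gain 4.63 CPM, loss 50.7 CPM), c61935 (3.36 CPM and 18.9 CPM), c58166 and c51213 (18.7 CPM and 57.0 CPM). The ratio of gain to loss thus ran between 0.0913 and 8.81. It was computed with library totals only. TMM factors lowered the sums above in the libraries labelled MeJA relative to those labelled control. Which components lie between 0.5 and 2 may therefore differ with such factors, which was not tested.

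**Figure D4:**
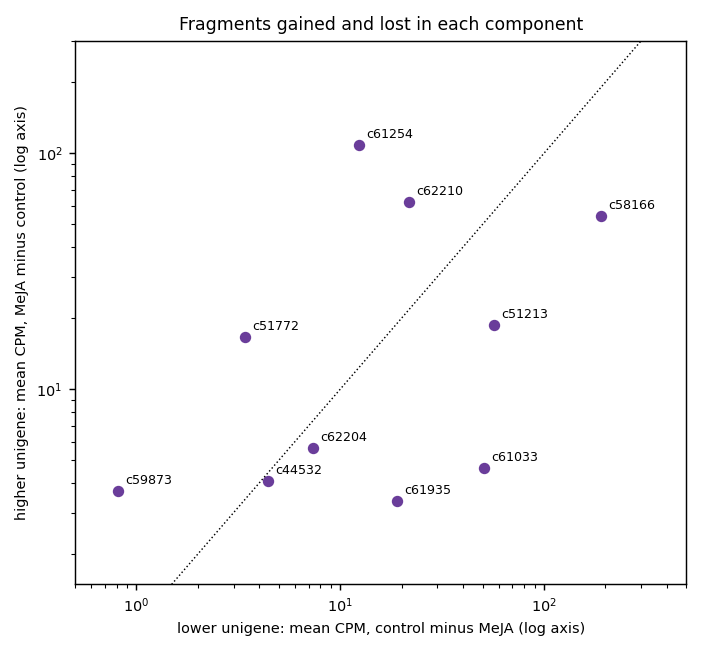
Mean CPM gained by the MeJA-high unigene (y, libraries labelled MeJA minus control) against that lost by the control-high unigene (x, control minus MeJA) in each component, both on log axes; the dotted line marks equal amounts. Over all 6 libraries scaled to their totals, only c44532 and c62204 lie within a factor of 2 of the line. Without control replicate 2, c62204 does not (ratio 2.78). Above the line lie 4 components and below it 6. Other scalings were not used here.

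The 10 components held 45 unigenes, so 25 were not members. Among these, 19 could be called but had a gap of 2 or less, 1 was the unigene of c58166 past the upper limit, and 5 had counts too low to be called, including the other unigene of c58166 with a wide gap. The components were larger than others, with a median of 3.5 unigenes against 2 and 1 component of exactly 2 unigenes against 53.3% of the 2342. The part of component size in the presence of both directions was not tested. By edgeR's quasi-likelihood test (adjusted p under 0.05), which called 14.3% of 24646 unigenes as higher and 12.8% as lower in the libraries labelled MeJA, 1 of the 21 other unigenes tested was higher and 6 were lower. In c61254, 3 of the 6 were found, with edgeR log2 fold changes of -1.97 (SE 0.42), -1.51 (SE 0.42) and -1.10 (SE 0.33), on the side of its control-high member.

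The same fit called 19 of the 20 members in their direction. The contrast is the one that chose them, so nothing is read from this count beside the 14.3% and 12.8% above. The exception was the MeJA-high unigene of c62204, with a log2 fold change of 1.63 (SE 0.61). With the replicate number as a block, 18 of the 20 were called, and the MeJA-high unigene of c59873 was also lost (edgeR adjusted p = 0.0600). The edgeR log2 fold changes of the named members were 4.07 (SE 0.73) for c44532_g2, -4.03 (SE 0.72) for c44532_g1, 1.28 (SE 0.35) for c58166_g1 and -4.39 (SE 0.53) for c58166_g5. The medians were 2.23 over the 10 MeJA-high and -4.33 over the 10 control-high members. Calls in both directions by edgeR were found in 92 of 2643 components with 2 or more unigenes tested (3.48%), 9 of them among the 10 components here.

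Effective length, the number of positions in a sequence from which a fragment could come, was not used by the rule. It is not independent of the rule either, since CPM rises with effective length at a given level per length. It was recovered for each library from the deposited count and FPKM. RSEM weights it over the transcripts of a unigene, so it can differ between libraries when the mix of transcripts differs. The median effective length was 1216 bases over the MeJA-high members and 1139 bases over the control-high members, against 1168 bases over all unigenes that could be called. The MeJA-high member was the longer in 4 of 10 components. Its length relative to the control-high member ran between 0.249 in c44532, with 385 bases for c44532_g2 and 1544 bases for c44532_g1, and 17.6 in c51772. The longer partner was 2.31 times the shorter in the median component, against 1.92 over all pairs that could be called.

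Effective length was nearly constant over the libraries for 13 of the 20 members, with a longest over shortest below 1.1. It exceeded 1.1 for the other 7 (35%), against 29.5% of unigenes that could be called in components of 2 or more unigenes. In 3 of the 6 members with such a ratio and a length in all libraries, the lengths did not overlap between the groups, against 23% of 3809 unigenes. These were the MeJA-high unigenes of c62204 and of c62210 (2219 ± 214 bases and 1986 ± 7.28 bases) and the control-high unigene of c61935 (988 ± 15.4 bases and 923 ± 33.9 bases). Lengths without overlap fix the two-sided exact permutation p at 0.1, the smallest that 3 against 3 libraries can give. None can therefore pass 0.05, and nothing is read from these p-values.

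The MeJA-high unigene of c62204 had by far the largest shift. Its effective length was 1366, 967 and 1143 bases in the libraries labelled MeJA, against 408, 161 and 490 bases in the libraries labelled control, or 1158 ± 200 bases and 353 ± 171 bases. The longest was 8.46 times the shortest, a ratio reached by 41 of the unigenes that could be called. Read per length, the unigene did not separate the groups: its FPKM was 9.30, 4.06 and 4.31 in the libraries labelled MeJA and 4.71, 12.0 and 1.60 in those labelled control, with overlapping groups. The log2 change was -0.05 in FPKM where it was 2.21 in CPM. Its place among the opposite pairs rests on fragment number and not on level per length. For the other 19 members the groups did not overlap in FPKM, and the log2 changes in FPKM and CPM differed by at most 0.16. The rule required separation in CPM, and FPKM differs from it only through effective length, so nothing further is read from that count. Groups without overlap also need not reach the gap above 2 that the rule asks for. With FPKM in place of CPM for the gaps, c59873, c61935 and c62210 were lost as well as c62204, and c59588 was added.

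**Figure D5:**
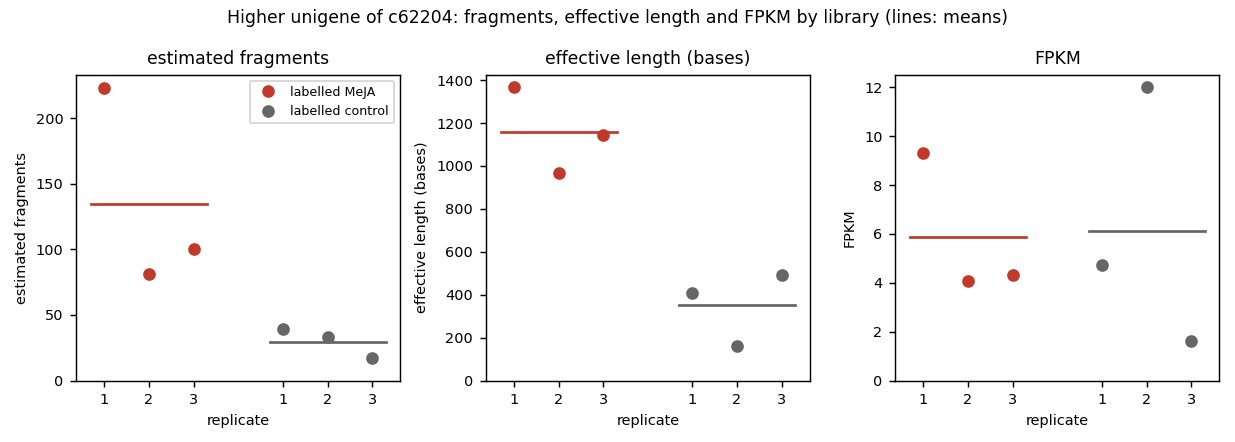
Estimated fragments, effective length in bases and FPKM of the MeJA-high unigene of c62204 in each library (points) with group means (lines), libraries labelled MeJA on the left and control on the right of each panel. Fragments and length are higher in all 3 libraries labelled MeJA, and the FPKM values overlap (9.30, 4.06 and 4.31 against 4.71, 12.0 and 1.60).

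RSEM divides a fragment that matches several sequences between them, which can leave counts that are not whole numbers. Whole counts do not show that a unigene shares no fragments, whereas counts that are not whole show that it does. Only the MeJA-high unigene of c59873 had such counts, 1 of 20 members (5%), against 6.94% of 7780 unigenes that could be called in components of 2 or more and 0.0289% of those alone in their component. Its counts were 142.79, 42.71 and 51.89 in the libraries labelled MeJA and 7, 16.74 and 8 in those labelled control. The unigene that shared with it was not its control-high partner but another of the component, with 25.21, 61.29 and 31.11 against 87, 44.26 and 48. The sums were whole in all 6 libraries, at 168, 104 and 83 in the libraries labelled MeJA and 94, 61 and 56 in those labelled control. These sums overlap between the groups. The counts do not give the number of fragments that RSEM divided, so the part of this division in the level of the MeJA-high unigene was not tested. The counts of the other 19 members were whole in every library.

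Within the groups, the partners did not rise and fall together over replicates. The deviations of log2 CPM from the group mean correlated at r = -0.222 over 60 points, 6 libraries for each of the 10 opposite pairs. This r enters each pair in both orders, which makes it weaker than an ordinary correlation where the partners differ in spread. The same value was 0.472 over 151 pairs that moved in a common direction and 0.206 over 5145 other pairs. The points share libraries and depth, and the value moved to -0.0774, -0.117 and -0.363 without control replicates 1, 2 and 3, so it is weak and is given as a description.

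The same library was mostly the highest in the higher group, whereas in the lower group no library was the highest for more than 4 of 10 members of a direction. In the lower group MeJA replicate 1 was the lowest for 7 of 10 control-high members, against 52.4% of all 504 unigenes called as lower. Control replicate 2 was the lowest there for 5 of 10 MeJA-high members, against 68.75% of all 2928 called as higher. MeJA replicate 1 was the highest of its group for 10 of 10 MeJA-high members, as for 77.5% of all 2928 unigenes called as higher in the libraries labelled MeJA. Control replicate 2 was the highest of its group for 9 of 10 control-high members, the exception being that of c59873, against 50% of all 504 unigenes called as lower. The means of the higher group moved by over 1.5 times without such a library in 7 members. Without MeJA replicate 1 they were 10.6 CPM in place of 18.7 CPM in c51772, 2.31 CPM in place of 4.25 CPM in c59873 and 4.42 CPM in place of 7.18 CPM in c62204. Without control replicate 2, apart from c51213 and c62204 above, they were 2.22 CPM in place of 3.67 CPM in c51772 and 15.1 CPM in place of 22.8 CPM in c62210. Over all libraries left out in turn, the fold change moved by over 1.5 times in 11 of the 20 members. The MeJA-high members varied more in the libraries labelled MeJA than other unigenes of their direction, with a median coefficient of variation of 52.5% against 34.6%, and the part of these libraries in the pairs was not tested.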

How the data were processed

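RNA-Seq was performed on 6 libraries of suspended licorice cells, 3 labelled MeJA and 3 labelled control. The authors deposited, for each library, the expected counts that RSEM estimated for every unigene, without normalization, of which between 0.321% and 0.377% were not whole. The authors also deposited FPKM, computed from these counts and the effective length. The assembler, the aligner and all versions were not given in the sources used here. Reads were not pooled over replicates.

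Library totals were between 17041505 and 21670945. No replicate duplicated another (lowest chi-square over degrees of freedom, 71.8). CPM used the library total. Effective length was taken where a library had at least 10 counts and an FPKM of at least 0.3, and a count was whole within 0.001. Rounded counts were fitted with edgeR 4.0.16 in R 4.3.3 (TMM, filterByExpr at 10 counts and 15 in total, quasi-likelihood test, Benjamini-Hochberg adjustment, threshold 0.05) and checked on simulated data. Alternatives used DESeq2 1.42.0, limma 3.58.1, other scalings, limits and count minima, FPKM and each library left out. Python 3.11.15 with numpy 2.4.6, pandas 2.3.3, scipy 1.17.1 and matplotlib 3.10.9 made the tables and plots.

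Deviations from the group means correlated at 0.253, 0.277 and 0.299 between libraries with the same replicate number and at -0.388 to 0.126 between others, and for this reason only a fit with the number as a block was made as an alternative. The reported fit is unpaired. The members and lists were chosen with earlier results of these data known. Identifiers were printed in full for the pair with the largest sum of log2 gaps and that with the highest summed CPM. Other members are given by component.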

Additional observations from a re-analysis of the deposited data

How the results depend on the processing

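The number of components with both directions, 10 with 10 MeJA-high and 10 control-high members, stayed within 1.5 times with TMM (10), RLE (11) and upper-quartile factors (10), rounded counts, FPKM (7, of which 6 shared), no limit on the CPM or on the upper gap, no minimum in the lower group (14) and at least 20 counts (9), but 3 components at most were shared under the first 3 scalings. A gap above 1.5 gave 43 components with 50 and 44 members, a gap above 3 gave 2 with 2 and 2, and at least 50 counts gave 6 with 6 and 6. Calls in both directions gave 92 components with 107 and 111 members by edgeR, 145 with 172 and 184 by DESeq2, and 75 with 84 and 83 by limma on log2(FPKM + 1). Leaving out a library gave between 16 and 42 components, 16 to 47 MeJA-high and 16 to 46 control-high members. The members called by edgeR numbered 19, 15 to 20 with a library left out and 18 with the replicate block. The median log2 difference between partners was 6.50, 5.71 to 7.04 with a library left out, 5.85 in FPKM and 6.54 to 6.58 with other factors. The median log2 change of the sum was -0.17, -0.75 with TMM factors and -0.37 to 0.12 with a library left out. The correlation of deviations, with alternatives added after seeing the data, was -0.222, -0.172 with TMM factors and -0.363 to -0.0774 with a library left out. Of 260 edgeR, DESeq2 and limma fold changes of the members under alternatives, 0 turned sign, and 14 of the 20 members stayed on the same side of the threshold throughout. The rule chose the members by this contrast in these same libraries, so their signs were nearly fixed beforehand and nothing is read from these counts. Depth limits the members with fewer than 10 fragments a library in their lower group, such as c44532 and the control-high unigene of c59873.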
